A study of Homo sapiens with 6 samples.

Results

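The 32 genes described here encode the Fanconi anaemia (FA) proteins, the proteins of homologous recombination (HR) and the kinases that respond to DNA damage. They were taken by name from the deposited RPKM table of 60131 genes and by Entrez identifier from the deposited normalized count table of 28395 genes, and all 32 were present and passed the filter on low values in both tables. Total RNA of K562 cells was sequenced in 3 libraries of the RUNX1 R320* genotype and 3 of the wild-type (WT) genotype. K562, an established line of human leukaemia cells, carries the BCR-ABL1 fusion and has erythroid and megakaryocytic features, and both genotypes share that background. RUNX1 is a transcription factor of blood cell development, and R320* replaces a codon towards the C-terminus of its protein with a stop. The cells were grown with no stated treatment, in RPMI-1640 medium with serum. The labels do not say how the R320* change was made, whether the line is a single clone, or whether replicates are separate cultures, so p-values measure the spread between these libraries only, which may be technical.

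The FA pathway repairs crosslinks that tie the strands of DNA together. A core complex of FA proteins, with FANCL as its ubiquitin ligase, attaches ubiquitin to the FANCI-FANCD2 pair, which directs nucleases and then the recombination proteins to the site. In homologous recombination, the MRE11-RAD50-NBN complex and its partners trim a broken end, BRCA2 with PALB2 and BRCA1 prepares the exposed strand for strand exchange, and the break is copied from the sister chromatid. ATM and ATR start the checkpoint response, and CHEK2 and CHEK1 are their effector kinases.

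Depth was similar across the libraries, with 30064538 to 31306435 reads assigned to genes in R320* and 29058471 to 30595857 in WT, and no member had fewer than 217 reads in a library. The mean chi-square per gene between replicates was 5.22 to 8.66, more than counting reads alone gives. RUNX1 averaged 5165 ± 124 normalized counts in R320* cells and 2933 ± 31.6 in WT cells (SD, n = 3 each, log2 fold change 0.82, limma adjusted p = 4.4e-11), a gene total that does not separate alleles. The K562 markers were present in both genotypes: GATA1 averaged 6124 ± 207 normalized counts in R320* and 8964 ± 175 in WT, TAL1 4663 ± 42.2 in R320* and 3117 ± 27.5 in WT, and HBG1 20932 ± 4419.7 in R320* and 13338 ± 589 in WT. Of 21 markers of other cell types, 11 stayed below 20 normalized counts in every library, ELANE and CDH5 had 0 normalized counts in all 6 (ELANE up to 0.124 RPKM), and the markers summed to 15402 to 15667 in R320* and 18524 to 18834 in WT. Of the 9 tested, 2 were called higher and 5 lower, while of 17 K562 and erythroid markers 10 were called higher and 2 lower. Over all genes tested 26.4% were called higher and 27.4% lower. In such bulk libraries, fewer cells of a type and less RNA per cell cannot be told apart.

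Where FA and HR transcripts were called different between the genotypes, they were mostly higher in R320* cells, ATM most of all. Levels are given as normalized read counts per library, and each log2 fold change is the R320* mean less the WT mean of log2(normalized count + 1), with its standard error (SE). A gene was called higher or lower when its limma p-value, adjusted over all 14299 genes tested, was below 0.05. Of the 32 genes, 15 were called higher, 2 lower and 15 neither. Over all genes tested 53.7% were called, 26.4% higher and 27.4% lower, and among the members 53.1% were called, 46.9% higher and 6.25% lower. The 3 R320* libraries did not overlap the 3 WT libraries for 16 members, 13 of them higher and 3 lower, against 59.8% of all genes tested (29.6% higher and 30.2% lower). The members' median log2 fold change was 0.13, and that of all genes tested was 0.01. In normalized counts 16 of the 17 called members differed by less than 1.5-fold, against 62.3% of all called genes, and ATM was the exception, above 2-fold. In RPKM, 5 of the 10 called members (ATM, RAD52, BRCA2, MRE11 and PALB2) reached 1.5-fold. The same share over all genes called in RPKM is not given here.

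**Figure D1:**
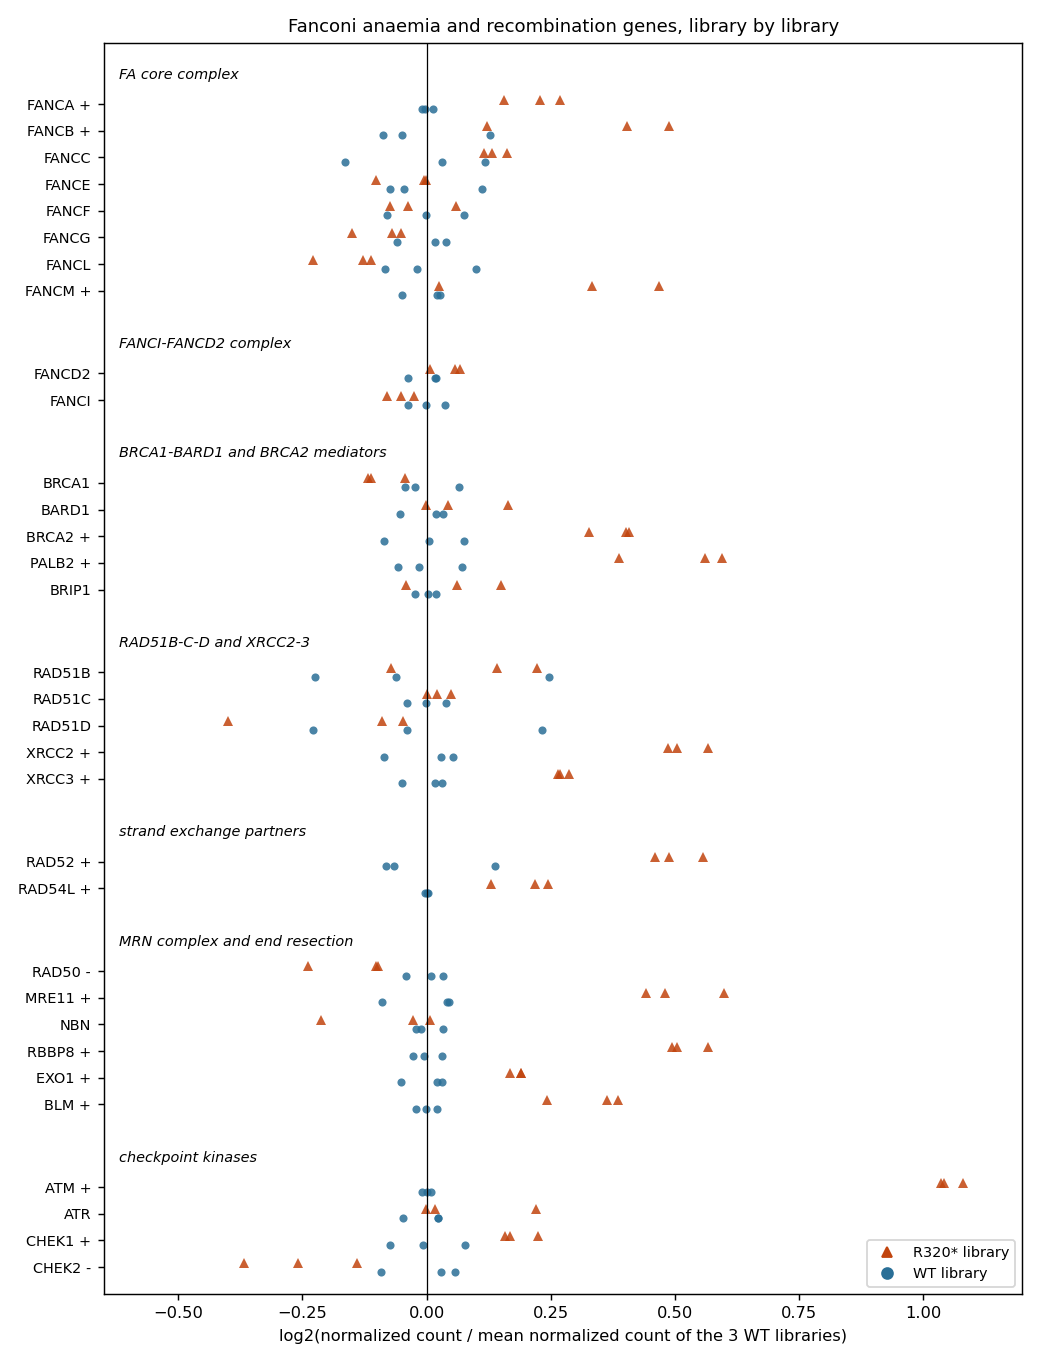
Normalized count of each of the 32 genes in each library, as log2 of its ratio to the mean of the 3 WT libraries, with R320* libraries as triangles and WT libraries as circles, grouped by role. A plus sign marks the 15 genes called higher in R320* and a minus sign the 2 called lower. ATM lies alone on the right, at more than 2-fold above WT in all 3 R320* libraries, and RBBP8, XRCC2, PALB2, MRE11 and RAD52 form the next group.

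Because RUNX1 is a DNA-binding factor, the sequence just upstream of the members' start sites was read for short motifs. RefSeq (GRCh38.p14) gave promoters of 250 bases before to 50 after the start for 30 members, all but FANCI and NBN. A single start per gene was searched. It lay inside the RefSeq span for some, RAD52 and RAD51B among them, and at the outer end of the 126 kb BRCA1 span. The motifs searched on both strands were RUNX (TGTGGT or the variant TGCGGT), E2F (TTTCCCGC, TTTGGCGC, TTTCGCGC or TTTGCCGC), CCAAT, and the cell cycle element CHR (TTTGAA or the variant TTCGAA). A RUNX match was present in 7 of 30 members (23.3%), against 18.3% of promoters of all genes tested and 19.4% of all promoters. An E2F match was present in 5 (16.7%), against 5.35% and 3.33%, a CCAAT match in 12 (40%), against 36.6% and 35.7%, and a CHR match in 3 (10.0%), against 11.4% and 16.6%. By call, CCAAT was in 9 of 15 members called higher, 1 of 2 called lower and 2 of 13 not called, and RUNX in 4 of 15, 1 of 2 and 2 of 13. E2F was in 3 of 15, 0 of 2 and 2 of 13. Shares by call over all genes tested are not given here, so these counts do not tie a motif to a call. These counts describe letters in a window and say nothing of binding, and a gene without a match may still be bound elsewhere.

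The 250 bases upstream are shown for the 5 members that were without overlap in both tables and had the largest changes in counts, to let the motif content of the most changed genes be compared. Capitals mark matches to any of the motifs above on either strand, so ATTGG is CCAAT read on the opposite strand and ACCGCA is the RUNX form TGCGGT. The windows are chr11:108222817-108223066 (plus strand) for ATM, chr18:22933078-22933327 (plus) for RBBP8, chr7:152676142-152676391 (minus) for XRCC2, chr16:23641311-23641560 (minus) for PALB2 and chr11:94493845-94494094 (minus) for MRE11. For RBBP8 and MRE11 the table's start lies inside the RefSeq span of the gene. All are 5′ to 3′ on the gene's strand.
ATM: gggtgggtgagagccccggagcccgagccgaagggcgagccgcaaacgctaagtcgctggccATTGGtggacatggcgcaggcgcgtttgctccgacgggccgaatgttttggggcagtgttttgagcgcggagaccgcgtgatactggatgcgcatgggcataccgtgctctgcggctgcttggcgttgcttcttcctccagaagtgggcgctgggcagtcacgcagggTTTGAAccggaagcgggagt
RBBP8: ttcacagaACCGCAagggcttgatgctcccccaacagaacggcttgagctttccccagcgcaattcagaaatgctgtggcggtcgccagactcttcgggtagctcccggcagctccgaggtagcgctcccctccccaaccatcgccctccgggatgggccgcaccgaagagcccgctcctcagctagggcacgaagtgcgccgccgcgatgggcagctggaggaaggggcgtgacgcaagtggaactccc
XRCC2: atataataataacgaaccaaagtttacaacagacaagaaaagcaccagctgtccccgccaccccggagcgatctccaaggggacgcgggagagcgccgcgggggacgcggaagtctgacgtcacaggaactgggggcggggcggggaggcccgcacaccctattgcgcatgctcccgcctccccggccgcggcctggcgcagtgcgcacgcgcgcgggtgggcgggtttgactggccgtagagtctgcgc
PALB2: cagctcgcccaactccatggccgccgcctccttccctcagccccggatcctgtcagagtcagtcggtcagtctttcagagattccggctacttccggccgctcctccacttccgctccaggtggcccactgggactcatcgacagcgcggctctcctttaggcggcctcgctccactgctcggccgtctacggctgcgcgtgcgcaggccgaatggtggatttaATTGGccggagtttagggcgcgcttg
MRE11: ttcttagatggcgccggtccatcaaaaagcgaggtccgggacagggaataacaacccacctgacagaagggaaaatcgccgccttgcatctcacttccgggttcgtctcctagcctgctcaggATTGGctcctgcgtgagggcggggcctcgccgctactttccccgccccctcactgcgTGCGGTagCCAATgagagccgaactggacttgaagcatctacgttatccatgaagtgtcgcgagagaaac

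ATM, with the largest change, had a CCAAT match and a CHR match upstream and no RUNX match. RBBP8 had a RUNX match at the far end of the window, 242 bases before the start, and MRE11 had a RUNX match at 70 bases before the start, close to a CCAAT match, and a further CCAAT match. PALB2 had a single CCAAT match at 26 bases before the start. XRCC2 had no match upstream, and its E2F match lay 21 bases after the start, outside the bases shown. The 5 windows therefore share no single motif among those searched.

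ATM, the kinase that signals DNA breaks, had the largest difference of the 32. It had 8983, 8757 and 8718 normalized counts in R320* libraries, against 4274, 4226 and 4251 in WT libraries. Every R320* library was therefore far above every WT library, and ATM was the most abundant member in R320* cells by normalized count. ATM thus rose 2.07-fold (limma adjusted p = 4.52e-13, log2 fold change 1.05 with SE 0.04). Per length, ATM had 88.1, 78.4 and 107 RPKM in R320* and 40.1, 38.0 and 31.2 RPKM in WT (log2 fold change 1.32 on the log2(RPKM + 0.1) scale, limma adjusted p = 0.000643). ATM spans chr11:108223067-108369102 on the plus strand, in the GRCh38.p14 annotation of RefSeq. The 50 nearest tested genes on the chromosome had a median log2 fold change of 0.06.

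The other kinases moved less and not all one way. CHEK1, which ATR activates when replication stalls, had 2903, 3016 and 2882 normalized counts in R320* and 2572, 2454 and 2724 in WT. It rose 1.14-fold (log2 fold change 0.18, SE 0.05, limma adjusted p = 0.00404), and also rose in RPKM (50.6 ± 2.14 in R320* and 43.0 ± 3.45 in WT, log2 fold change 0.24, limma adjusted p = 0.0375). CHEK2, the effector kinase of ATM, had 898, 767 and 827 normalized counts in R320* and 929.9, 1031 and 1010.2 in WT. It fell to 0.838 of the WT level (log2 fold change -0.25, SE 0.07, limma adjusted p = 0.00843), without overlap between genotypes. This call was lost without R320* replicate 2 (limma adjusted p = 0.0523) and in RPKM, where CHEK2 averaged 24.6 in R320* and 25.9 in WT (log2 fold change -0.08, limma adjusted p = 0.452). ATR, with 1179, 1374 and 1194 normalized counts in R320* and 1199.8, 1142 and 1199 in WT, was not called (log2 fold change 0.08, SE 0.07, limma adjusted p = 0.343), and its genotypes overlapped. The RPKM ratio of ATM to CHEK2 was 3.73 ± 0.677 in R320* and 1.41 ± 0.203 in WT.

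Among the 6 genes of end recognition and resection, 4 were called higher and 1 lower, beside 26.4% and 27.4% of all genes tested. Counts in so small a group are not read as a trait of the role. RBBP8 encodes CtIP, which starts the trimming of broken ends together with the MRE11 nuclease. It had 1253, 1309.8 and 1245 normalized counts in R320* and 904, 880.3 and 868 in WT, with no overlap (1.44-fold, log2 fold change 0.52, SE 0.06, limma adjusted p = 1.76e-06). MRE11, the nuclease itself, had 3466, 3194 and 3110.4 in R320* and 2151, 2356 and 2362 in WT, again without overlap (1.42-fold, log2 fold change 0.51, SE 0.05, limma adjusted p = 5.24e-07). Neither of its partners in the complex was called higher. RAD50, the ATPase that bridges ends, had 4833, 4847 and 4399 normalized counts in R320* and 5306, 5217 and 5039 in WT, and fell slightly (0.904-fold, log2 fold change -0.15, SE 0.04, limma adjusted p = 0.0109). NBN, the subunit that recruits ATM, had 2751, 2684 and 2362 in R320* and 2798, 2697 and 2714 in WT, with overlap (log2 fold change -0.08, SE 0.05, limma adjusted p = 0.253). For RAD50, the call was lost without WT replicate 1 (limma adjusted p = 0.0526), with no intensity trend in the fit (limma adjusted p = 0.0868), and also in RPKM (log2 fold change -0.10, limma adjusted p = 0.253).

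For MRE11 the rise stood in RPKM as well, where it had 35.4, 41.2 and 43.4 in R320* and 24.2, 24.2 and 25.9 in WT (log2 fold change 0.69, limma adjusted p = 0.00115). The RPKM ratio of MRE11 to RAD50 was 1.02, 1.22 and 1.38 in R320* libraries and 0.639, 0.688 and 0.751 in WT libraries. In normalized counts, which are not per length, it was 0.717, 0.659 and 0.707 in R320* libraries and 0.405, 0.452 and 0.469 in WT libraries, so in both tables the genotypes did not overlap. RAD50 lies at chr5:132556977-132646349, in a stretch whose genes were lower in R320* as a group: of its 50 nearest tested genes 36 were called lower and 4 higher, and their median log2 fold change was -0.43. The part of that stretch in the RAD50 value was not tested. The annotation also places 79.7% of the exon bases of RAD50 in a readthrough transcript on the same strand, so reads of RAD50 could be divided or left out in counting.

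The long-range resection enzymes rose together by smaller amounts. BLM, the helicase altered in Bloom syndrome, had 3014, 3060.1 and 2773 normalized counts in R320* and 2377, 2342 and 2309.6 in WT (1.26-fold, log2 fold change 0.33, SE 0.05, limma adjusted p = 2.2e-05). EXO1, an exonuclease of resection and mismatch repair, had 4517, 4449 and 4521 in R320* and 4045, 4018 and 3821 in WT (1.14-fold, log2 fold change 0.18, SE 0.04, limma adjusted p = 0.000996). Neither gene showed overlap between genotypes in either table. In RPKM, BLM remained called (26.0 ± 0.496 in R320* and 18.8 ± 2.08 in WT, log2 fold change 0.47, limma adjusted p = 0.00601) and EXO1 just missed the threshold (60.3 ± 5.19 in R320* and 50.7 ± 3.55 in WT, log2 fold change 0.25, limma adjusted p = 0.0519). RBBP8 was called in RPKM with 15.8, 14.1 and 17.6 in R320* and 13.5, 11.3 and 12.6 in WT (log2 fold change 0.34, limma adjusted p = 0.0475).

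In the BRCA group, the BRCA2 side rose and the BRCA1 side was not called. PALB2, the bridge between BRCA1 and BRCA2, had 1054, 913 and 1030.1 normalized counts in R320* and 670.5, 691 and 733 in WT (1.43-fold, log2 fold change 0.51, SE 0.07, limma adjusted p = 2.24e-05). BRCA2, the mediator of strand exchange, had 1064, 1059.7 and 1006 in R320* and 845, 806 and 756 in WT (1.30-fold, log2 fold change 0.38, SE 0.07, limma adjusted p = 0.000173). Both were without overlap between genotypes in both tables, and both were called in RPKM (PALB2 10.7 in R320* and 7.08 in WT, limma adjusted p = 0.0181, and BRCA2 4.79 in R320* and 2.86 in WT, limma adjusted p = 0.0244). BRCA1, a ubiquitin ligase with BARD1, had 4607, 4376 and 4394 normalized counts in R320* and 4668, 4965 and 4604 in WT, overlapping by a few counts. It was not called (log2 fold change -0.09, SE 0.04, limma adjusted p = 0.0851), although quantile scaling (limma adjusted p = 0.0342) and leaving out R320* replicate 1 (limma adjusted p = 0.0465) brought it below the threshold as lower. In RPKM its value had the other sign (log2 fold change 0.10, limma adjusted p = 0.265). BARD1 (650.1 ± 38.9 in R320* and 619 ± 19.8 in WT, log2 fold change 0.07) and the helicase BRIP1 (1410.01 ± 93.0 in R320* and 1353 ± 20.9 in WT, log2 fold change 0.06) were not called, with limma adjusted p of 0.488 and 0.446.

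RAD51B, RAD51C, RAD51D, XRCC2 and XRCC3 are related proteins that assist strand exchange. Of these 5, 2 were called higher, beside 26.4% of all genes tested. XRCC2 had 3314, 3173 and 3134 normalized counts in R320* and 2283, 2322 and 2107 in WT (1.43-fold, log2 fold change 0.52, SE 0.05, limma adjusted p = 1.5e-07). It was also higher in every R320* library in RPKM, with 34.9, 35.6 and 36.9 in R320* and 24.4, 24.3 and 23.7 in WT (log2 fold change 0.57, limma adjusted p = 0.000244). XRCC3 had 1429.5, 1435 and 1451 normalized counts in R320* and 1205, 1151 and 1215 in WT (1.21-fold, log2 fold change 0.27, SE 0.06, limma adjusted p = 0.000522). This value is uncertain, since 76.7% of its exon bases overlap KLC1 on the opposite strand and the use of strand in counting is not given, and its RPKM change was not called (21.3 in R320* and 18.0 in WT, limma adjusted p = 0.0735). KLC1 itself had a log2 fold change of 0.02 (limma adjusted p = 0.73). RAD51B averaged 275 ± 28.3 normalized counts in R320* and 256 ± 43.3 in WT, RAD51C 1259 ± 20.9 in R320* and 1238 ± 33.4 in WT, and RAD51D 399.8 ± 51.1 in R320* and 450.05 ± 73.0 in WT. None of these 3 was called (limma adjusted p of 0.534, 0.737 and 0.28) and their genotypes overlapped in both tables. RAD51B and RAD51D were, with FANCB, the members with the fewest reads.

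Both strand exchange partners were called higher, as were 26.4% of all genes tested. RAD52, an annealing protein that in human cells backs up the BRCA2 route, had 600.04, 612 and 642 normalized counts in R320* and 412, 417 and 480.3 in WT (1.42-fold, log2 fold change 0.50, SE 0.09, limma adjusted p = 0.000168). Per length it had 13.4, 13.6 and 14.8 RPKM in R320* and 8.70, 7.30 and 5.88 RPKM in WT (log2 fold change 0.94, limma adjusted p = 0.00318). That was the largest log2 fold change in RPKM among the 32 after ATM. RAD54L, a DNA motor protein of strand exchange, had 2742, 2579 and 2793 normalized counts in R320* and 2362, 2353 and 2358 in WT (1.15-fold, log2 fold change 0.20, SE 0.05, limma adjusted p = 0.0018). Its RPKM values overlapped (44.3 ± 1.09 in R320* and 39.3 ± 7.84 in WT, limma adjusted p = 0.32), and 25.1% of its exon bases overlap LRRC41 on the opposite strand (log2 fold change 0.09, limma adjusted p = 0.171).

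Among the FA genes proper, differences were small and every call was higher. The ubiquitinated pair at the centre of the pathway was not called: FANCD2 had 4338, 4312 and 4163 normalized counts in R320* and 4039, 4190.4 and 4198 in WT (log2 fold change 0.04, SE 0.04, limma adjusted p = 0.368), and FANCI had 7126, 7260.3 and 6986 in R320* and 7201, 7575 and 7386 in WT (log2 fold change -0.05, SE 0.04, limma adjusted p = 0.241). In both genes the genotypes overlapped. Of the 8 core complex genes, 3 (37.5%) were called higher and 0 lower, against 26.4% and 27.4% of all genes tested. The other 5 were not called. FANCA, a scaffold of the core complex, had 2856, 2714 and 2935 normalized counts in R320* and 2431, 2459 and 2421 in WT (1.16-fold, log2 fold change 0.22, SE 0.05, limma adjusted p = 0.000721). It was also higher in RPKM without overlap (64.9 ± 2.72 in R320* and 48.4 ± 3.02 in WT, limma adjusted p = 0.00229). However, 23.6% of its exon bases overlap ZNF276 on the opposite strand, and ZNF276 was called higher as well (log2 fold change 0.40, limma adjusted p = 3.25e-06). Whether reads of that gene add to the FANCA value was not tested.

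FANCB and FANCM were called in counts on less certain values. FANCB, which holds FANCL in the core complex, had 350.02, 371 and 288 normalized counts in R320* and 248.95, 289 and 256 in WT, so its genotypes overlapped (log2 fold change 0.34, SE 0.12, limma adjusted p = 0.0306). Its call was lost in 6 of 18 alternatives, with limma adjusted p up to 0.134, RPKM among them (5.18 in R320* and 4.27 in WT, limma adjusted p = 0.0869). FANCM, the DNA translocase that anchors the complex to damaged forks, had 795, 724 and 585 in R320* and 586, 555 and 583 in WT (log2 fold change 0.28, SE 0.10, limma adjusted p = 0.0279). In R320* replicate 3, FANCM lay at the WT level, and in RPKM the direction turned round (4.66 in R320* and 4.99 in WT, log2 fold change -0.09, limma adjusted p = 0.692). For FANCM, leaving out any of the other 5 libraries ended the call. The other members of the core complex were not called. FANCC averaged 1028 ± 16.8 normalized counts in R320* and 936 ± 92.4 in WT, and FANCE 1596 ± 62.2 in R320* and 1636 ± 115 in WT. FANCF averaged 824 ± 39.9 in R320* and 833 ± 44.6 in WT, and FANCG 1028 ± 37.6 in R320* and 1094 ± 39.0 in WT. FANCC was below the threshold as higher with quantile scaling (limma adjusted p = 0.047) and without WT replicate 2 (limma adjusted p = 0.0467). FANCL, the ubiquitin ligase, had 822, 813 and 758 in R320* and 951, 837 and 876 in WT, without overlap but above the threshold (log2 fold change -0.15, SE 0.07, limma adjusted p = 0.085). Its RPKM difference had the opposite sign (log2 fold change 0.10, limma adjusted p = 0.197). Of the exon bases of FANCL, 18.7% overlap VRK2 on the opposite strand, and the part of this in its values was not tested.

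**Figure D2:**
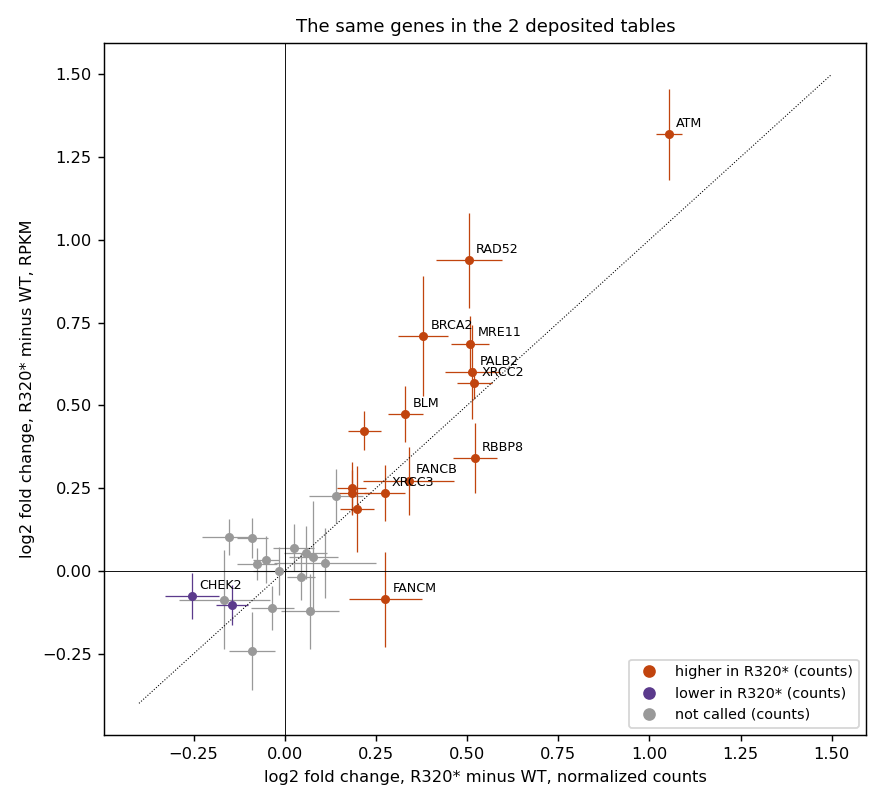
Log2 fold change of each of the 32 genes, R320* minus WT, from normalized counts (horizontal axis) and from RPKM (vertical axis), with bars of 1 standard error and a dotted line of equality. Colours give the call in normalized counts. ATM is highest in both, RAD52 and BRCA2 lie above the line, and FANCM, called higher in counts, lies below 0 in RPKM.

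The RPKM table gave fewer calls, and its called members were all higher. It called 10 members higher and 0 lower, against 31.9% of all 17769 genes tested in that table (15.1% higher and 16.8% lower). The genotypes did not overlap in RPKM for 15 members, 14 higher and 1 (FANCE) lower, against 47% of all genes tested there (22.9% higher and 24.1% lower). At an unadjusted p below 0.05 the limma fit on RPKM had 14 members higher and 0 lower, and that on normalized counts 15 and 4. At the same threshold edgeR and DESeq2 on the recovered reads each had 15 higher and 3 lower. Shares of all genes at an unadjusted p below 0.05 are not given here, so these counts stand without a background. At an adjusted p below 0.05, edgeR and DESeq2 each called 15 higher and 2 lower. All 10 members called in RPKM, namely ATM, RAD52, BRCA2, MRE11, PALB2, XRCC2, BLM, FANCA, RBBP8 and CHEK1, were also called higher in normalized counts. No member was called in opposite directions, 24 of 32 had the same sign in both tables, and 15 were called in neither. Across the 32 genes Spearman's rho between the log2 fold changes of the 2 tables was 0.81, a description only, since both come from the same libraries.

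Levels per length ran over more than an order of magnitude within the pathway. In WT cells FANCI was the most abundant of the 32 at 109.6 ± 8.53 RPKM, followed by RAD51C at 82.5 ± 2.98, FANCD2 at 60.7 ± 2.38, EXO1 at 50.7 ± 3.55 and FANCA at 48.4 ± 3.02. BRCA2 was lowest at 2.86 ± 0.257 RPKM, below FANCB at 4.27 ± 0.0995, FANCM at 4.99 ± 0.831, BARD1 at 6.68 ± 0.721 and PALB2 at 7.08 ± 1.09. ATM averaged 91.3 ± 14.8 RPKM in R320*, where FANCI at 112 ± 6.96 RPKM was the only member above it, and 36.4 ± 4.67 RPKM in WT, where it ranked 10 of 32. Neighbours in the order did not always separate: EXO1 and FANCA differed by less than their spread over the WT libraries. FANCM was above FANCB in every WT library. Across the 32 genes Spearman's rho of the log2 fold change with the mean RPKM in WT was -0.31 and with the length of the gene's span 0.24, both as descriptions of genes that share libraries.

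**Figure D3:**
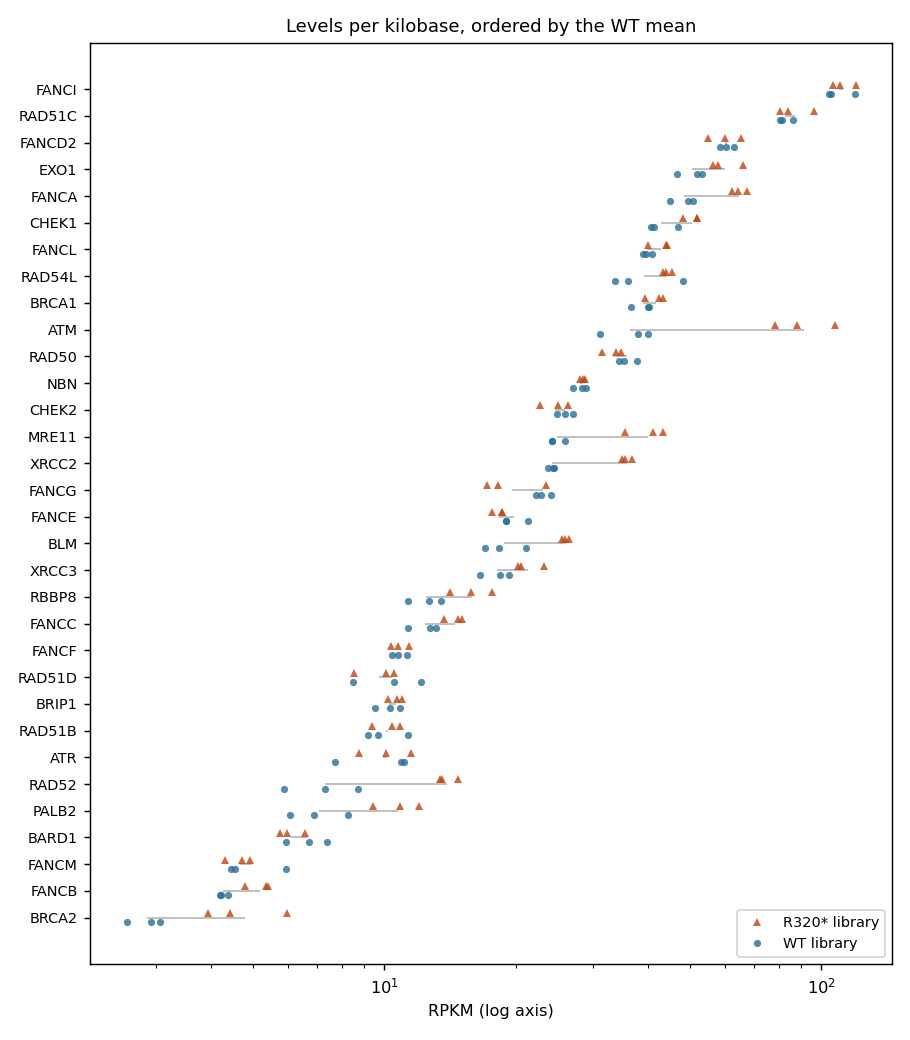
RPKM of the 32 genes in each library on a log axis, with R320* libraries as triangles and WT libraries as circles, ordered by the WT mean, and a grey line joining the means. FANCI is at the top and BRCA2 at the bottom, and ATM has the longest line, between 91.3 RPKM in R320* and 36.4 RPKM in WT.

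Ratios between members that work together were compared for 12 pairs in RPKM. With 3 libraries per genotype the smallest p of a two-sided exact permutation test is 0.1, which is 0.3 after Benjamini-Hochberg adjustment over the 12 pairs, so no pair could pass the threshold. The genotypes did not overlap for 4 pairs. These were ATM to CHEK2 and MRE11 to RAD50, given above, XRCC2 to RAD51D (3.71 ± 0.338 in R320* and 2.38 ± 0.457 in WT) and RAD52 to RAD51C (0.161 ± 0.00747 in R320* and 0.0888 ± 0.0195 in WT). Each had an exact permutation p of 0.1. The FANCD2 to FANCI ratio was 0.536 ± 0.034 in R320* and 0.555 ± 0.0234 in WT (exact permutation p = 0.6), and the BRCA1 to BARD1 ratio was 6.86 ± 0.579 in R320* and 5.89 ± 0.754 in WT (exact permutation p = 0.3), both with overlap. In normalized counts the genotypes did not overlap for 8 of the 12 pairs, these and the 4 above among them, each with an exact permutation p of 0.1. There the R320* ratio over the WT ratio was 1.07 for FANCD2 to FANCI, against 0.966 in RPKM, and 0.897 for BRCA1 to BARD1, against 1.16 in RPKM, so the direction of both pairs depended on the table.

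Many of these genes share their start region with a neighbour on the opposite strand. In the GENCODE v29 annotation, 14 of 32 members (43.8%) had the start of a protein-coding gene on the other strand within 1000 bases, against 2085 of 12076 tested protein-coding genes (17.3%). Of 12 such pairs with a tested partner, member and partner were both called in the same direction in 3, and in opposite directions in 0. In 5 pairs the member alone was called, in 1 the partner alone, and in 3 neither. Over all genes tested 26.4% were called higher and 27.4% lower. The same counts over all such pairs are not given here, so no link between paired starts is read from these. ATM and NPAT, a histone gene activator, start 158 bases apart, and NPAT was called higher by less, with 1515, 1510.2 and 1438 normalized counts in R320* and 1349, 1132 and 1100.2 in WT (log2 fold change 0.32, limma adjusted p = 0.00116). RAD52 with ERC1 (log2 fold change 0.18, limma adjusted p = 0.0349) and XRCC3 with ZFYVE21 (log2 fold change 0.25, limma adjusted p = 0.0396) were the other pairs called together. PALB2 and DCTN5 start 82 bases apart, yet DCTN5 averaged 3835 ± 86.6 in R320* and 3897 ± 278 in WT (log2 fold change -0.02, limma adjusted p = 0.749). The partner of MRE11, ANKRD49, had a log2 fold change of -0.12 (limma adjusted p = 0.255), and that of BRCA1, NBR1, was called lower (3282 ± 55.7 in R320* and 4061 ± 142 in WT, log2 fold change -0.31, limma adjusted p = 1.15e-05). A single start per gene was used here, and starts of BRCA1 inside its 126 kb span were not examined. The partners were singled out by position after their values could be seen.

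The chromosomal surroundings of the members differed. Across the 32 genes Spearman's rho between a member's log2 fold change and the median of its neighbours was 0.41, a description of genes that share libraries. The 32 genes lie on 18 chromosomes, and the median log2 fold change of the 50 nearest tested genes ran from -0.43 around RAD50 to 0.20 around EXO1, beyond 0.2 in size for these 2 members alone. Of the 17 called members 11 had the sign of their neighbours' median. The same share and rho over all genes are not given here, so neither is read as a link with the surroundings. Among the 50 neighbours, 23 were called higher and 8 lower around FANCA, whose neighbour median of 0.18 was close to its own log2 fold change of 0.22. The neighbours called higher and lower were 25 and 11 around RBBP8, 20 and 10 around MRE11, and 18 and 9 around PALB2. The part of these surroundings in the members' values was not tested. Around the members with the largest changes after ATM the medians were 0.15 for RBBP8, 0.04 for XRCC2, 0.11 for PALB2, 0.17 for MRE11 and 0.03 for RAD52. These members were picked for large changes, so that their medians are smaller tells nothing of the surroundings. For EXO1, also called higher, the log2 fold change of 0.18 was below its neighbour median of 0.20. CHEK2, which fell, lies among genes with a median of 0.11.

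**Figure D4:**
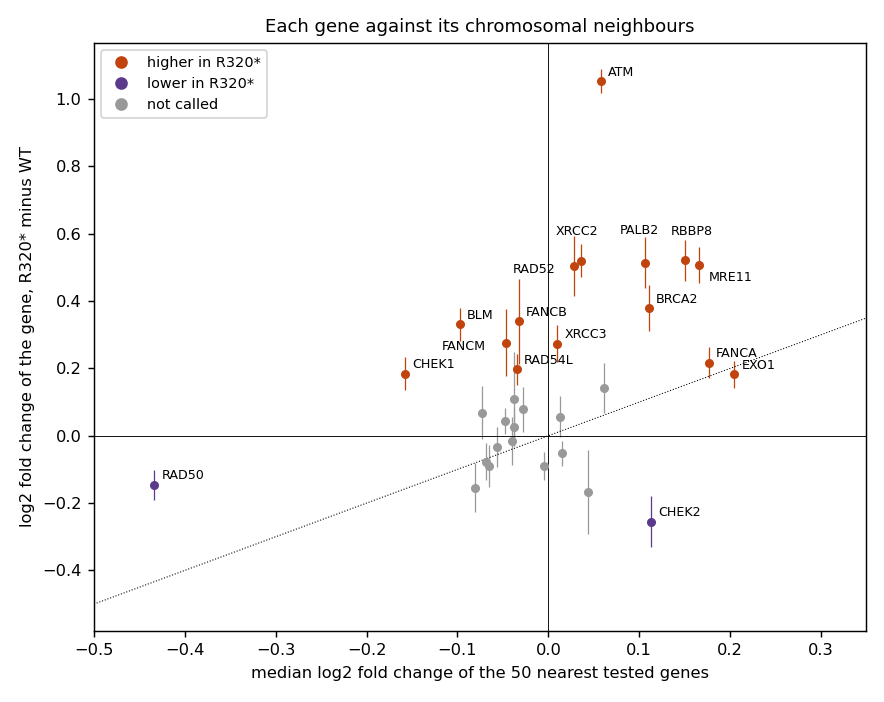
Log2 fold change of each of the 32 genes in normalized counts, R320* minus WT, with bars of 1 standard error, against the median log2 fold change of its 50 nearest tested genes, with a dotted line of equality. ATM and the group around RBBP8 and XRCC2 lie well above the line, EXO1 and FANCA lie near it, and RAD50 stands alone at a neighbour median of -0.43.

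Other genes of the pathway went both ways. Of 62 tested members of a list of further FA and HR genes, 21 were called higher and 8 lower (median log2 fold change 0.05). These are 33.9% and 12.9%, against 26.4% and 27.4% of all genes tested. The highest by significance were TONSL, a histone reader at broken forks (6889.6 ± 221 normalized counts in R320* and 3904 ± 90.5 in WT, log2 fold change 0.82), the helicase RECQL4 (6809 ± 210.1 in R320* and 4596 ± 173 in WT, log2 fold change 0.57), UHRF1 (2959.7 ± 109 in R320* and 2020.1 ± 42.7 in WT, log2 fold change 0.55), the resection nuclease DNA2 (1973 ± 56.9 in R320* and 1476 ± 54.4 in WT, log2 fold change 0.42) and RAD54L2 (1447 ± 42.5 in R320* and 1035 ± 63.1 in WT, log2 fold change 0.48). On the lower side were SWI5, a strand exchange accessory factor (502 ± 25.2 in R320* and 856 ± 55.6 in WT, log2 fold change -0.77), MAD2L2, the shieldin and polymerase zeta subunit that limits resection (2715 ± 22.4 in R320* and 3517 ± 89.1 in WT, log2 fold change -0.37), the histone H2AX (4857 ± 254 in R320* and 6364 ± 415 in WT, log2 fold change -0.39), and UIMC1 and ABRAXAS1 of the BRCA1-A complex (log2 fold change -0.48 and -0.29). The limma adjusted p of these 10 genes was at most 0.000103. H2AX had no row in the RPKM table, and the other 9 kept their sign there, all but RAD54L2 (limma adjusted p = 0.0578) with a call. TONSL and RECQL4 lie close together, at chr8:144428775-144444440 and chr8:144511288-144517833. The part of that shared location in their values was not tested.

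The other repair routes and the cell cycle lists give the setting, beside 26.4% of all genes tested called higher and 27.4% called lower. End joining genes were called higher for 7 of 18 and lower for 2, among them LIG3 (2823 ± 162 normalized counts in R320* and 1748 ± 84.6 in WT, log2 fold change 0.69) and SHLD2 (log2 fold change 0.44) on the higher side, and XRCC4 (log2 fold change -0.39) and SHLD1 (-0.58) on the lower. Mismatch repair genes were called higher for 3 of 7 and the other 4 were not called, with MSH6 (6219.6 ± 139 in R320* and 4636 ± 164 in WT, log2 fold change 0.42) among the 3. In nucleotide excision repair, 6 of 12 were called higher and 1 lower, with DDB1 (log2 fold change 0.38), ERCC2 (0.43) and DDB2 (-0.23) called. In the list of DNA replication and S phase, 15 of 29 genes were called higher and 3 lower (median log2 fold change 0.16), including TYMS (0.66) and MCM2 (0.48), with RRM2 (-0.80) and RFC5 (-0.68) lower. In the mitosis list, 3 of 20 were called higher and 9 lower (median -0.08), with BUB1 (0.66) and CENPF (0.30) higher and CDC25C (-0.90) and TOP2A (-0.46) lower. Many HR genes are themselves transcribed in S phase, and the part of these cell cycle differences in the members' values was not tested. Of 22 genes of the E2F, RB and CDK12 group 9 were higher and 4 lower, with MYBL2 (0.38) and E2F1 (1961 ± 132 in R320* and 1290.4 ± 79.7 in WT, 0.60) higher, and E2F7 (499.5 ± 9.91 in R320* and 1275 ± 79.9 in WT, -1.35) and RB1 (1169.6 ± 80.2 in R320* and 1599.7 ± 103 in WT, -0.45) lower. All genes named here had a limma adjusted p of at most 0.0192.

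**Figure D5:**
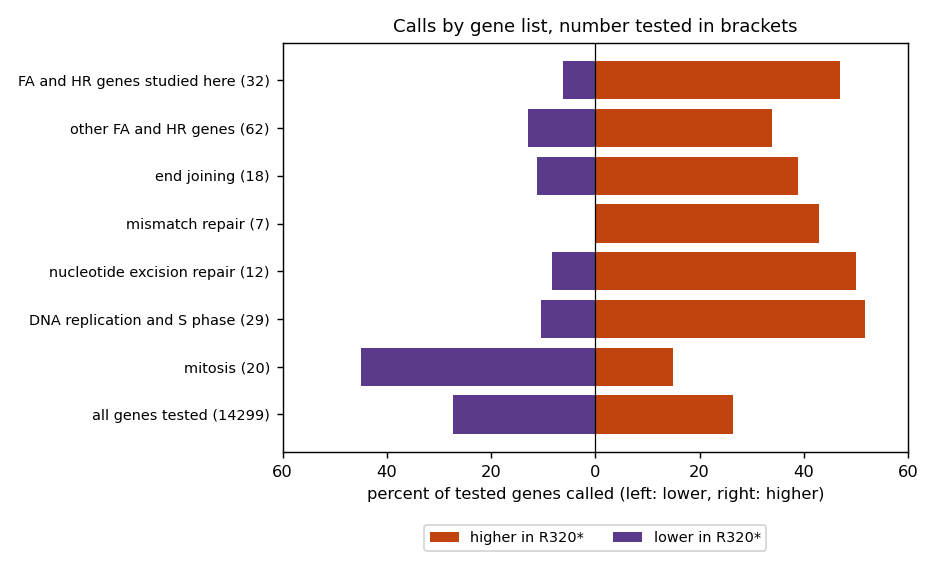
Percent of tested genes called in R320* against WT in normalized counts, higher to the right and lower to the left, for the 32 FA and HR genes and for related lists, with the number tested in brackets. The 32 genes were called higher for 46.9% and lower for 6.25%, against 26.4% and 27.4% of all genes tested, and the mitosis list is the one with more lower than higher calls apart from all genes.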

How the data were processed

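RNA sequencing libraries of K562 cells, 3 with RUNX1 R320* and 3 with wild-type RUNX1 (WT), were compared from 2 tables deposited by the authors. The genome build was hg38 and the tools were Salmon, DESeq2, featureCounts and HISAT2, per the submitters' processing notes. Which tool made which table, the versions and the use of strand were not given in the sources used here. The deposited normalized counts (signal) were read counts divided by a factor per library: all values (100%) were whole multiples of the library's smallest value within 1e-06, so reads were recovered. The deposited RPKM values are named as such by the authors' table; their columns summed to between 721735 and 786389, so a TPM-like scale is possible.

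Genes were kept where 3 or more libraries reached 10 normalized counts (14299 genes) or 0.5 RPKM (17769 genes). A limma 3.58.1 fit (R 4.3.3) with an intensity trend and moderated (empirical Bayes) variances was made on log2(normalized count + 1) and, separately, on log2(RPKM + 0.1). Fold changes on these scales understate changes of low genes. Benjamini-Hochberg adjustment ran over all genes tested, and an adjusted p below 0.05 was a call. Alternatives included other pseudocounts, filters and scalings, each library left out, edgeR 4.0.16 and DESeq2 1.42.0 on the recovered reads, which called 7660 and 7470 genes. The fit was tested on simulated data.

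Genes named are the 32 members, RUNX1, K562 markers and the called genes of smallest adjusted p in each list, up to 5 per direction for further FA and HR genes and 2 for other lists. Genes that share exons or start regions with a member were named after their values were seen. Some genes that the rule takes in were left out here. Members and lists were chosen with earlier results of these data known. Symbols, spans and promoters are from RefSeq GRCh38.p14, overlaps and paired starts from GENCODE v29. Exact permutation tests used SciPy 1.17.1 in Python 3.11.15. Alleles, isoforms and proteins were not analysed here.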

Additional observations from a re-analysis of the deposited data

How the results depend on the processing

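Each of the 17 called members kept its direction in all 18 alternatives except FANCM, with a log2 fold change of -0.0861 in the RPKM table. For the 32 genes together, 551 of 576 gene and setting combinations kept their call or lack of one, 20 lost a call, 4 gained one and 1 called gene turned round. The sign differed in 12 combinations, 8 of them in the RPKM table. The 15 members called higher were 13 to 16 in every alternative on normalized counts and 10 in RPKM. The 2 called lower were 1 without the intensity trend and 0 in RPKM, and 1 to 3 with a library left out, 1 each without R320* replicate 2 and WT replicate 1. In RPKM, members called higher were 6 to 9 with a library left out, 6 each without R320* replicate 3 and WT replicate 2, and called lower 0 to 1, the 1 without R320* replicate 1. With the replicate number as a block, 15 members were higher and 2 lower in normalized counts and 10 and 0 in RPKM. Deviations of same-numbered libraries correlated at 0.0316, -0.0031 and -0.0033. The labels do not say whether the numbers pair the samples, and these correlations cannot exclude a shared batch. Quantile scaling moved the median log2 fold change of all genes by 0.06. The causes were not tested. Reads from overlapping exons could not be separated for members that share exon bases with other genes, XRCC3, FANCA, RAD54L, RAD50 and FANCL among them. With 3 libraries per genotype no exact test of a single ratio could pass the threshold.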
